A study of Rattus norvegicus with 22 samples.

Results

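The genes in question encode the neuronal subunits of the nicotinic acetylcholine receptor, Chrna2, Chrna3, Chrna4, Chrna5, Chrna6 and Chrna7 among the α subunits and Chrnb2, Chrnb3 and Chrnb4 among the β subunits. Every probe set that the platform annotation names for one of these genes was taken, whatever its signal. This gave 11 probe sets for all 9 genes, out of 1050 probe sets and 643 named genes on the deposited table, with 2 probe sets each for Chrna7 and Chrnb4. Affymetrix RN_U34 arrays had been hybridized with amplified RNA of cells cut by laser from the ventral horn of Wistar rats in their first days of life (postnatal day 0 to 4). Descending commissural interneurons (dCINs, 7 arrays) had been labelled with a rhodamine dextran tracer from cut axons below the segment, motor neurons (MNs, 7 arrays) from the ventral roots, and MIX arrays (8) held randomly sampled ventral horn cells. Each array came from a different animal and from about 50 to 250 cells. The dCINs are defined by where their axons run and the MIX samples by position alone, so each group can hold several kinds of neuron and the cells that touch them.

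Marker genes were read to describe the groups. This was not an independent check of the labels, since the lists were drawn up with earlier results of these data known. Of 10 probe sets for markers of cholinergic motor neurons, 6 were called lower in dCINs than in MNs. All 6 are also among those that the paper ranked higher in MNs from these same arrays. They included U09211_at for the vesicular acetylcholine transporter Slc18a3. Its signal averaged 566 in dCINs, 4040 in MNs and 2558 in MIX samples. By contrast, the probe set AF030253_at for the vesicular GABA and glycine transporter Slc32a1 was called higher in dCINs, at 514 against 125 in MNs. A second Slc32a1 probe set, rc_AA996551_s_at, read 38.0 in dCINs and 36.0 in MNs and was not called. The summed signal of the motor neuron markers was 3327 to 5194 in dCINs, 6227 to 11364 in MIX and 12884 to 15862 in MNs. The glial list was not free of differences: Apoe, a lipid carrier of astrocytes, was called higher in dCINs in 1 of the 8 astrocyte probe sets. The sum over these 8 was 5609 to 8747 in dCINs, 3552 to 6240 in MNs and 3641 to 9039 in MIX. Most of that sum was the called Apoe probe set, X04979_at, with means of 6027 in dCINs, 3768 in MNs and 4959 in MIX. The sum therefore rests mostly on 1 probe set. Of the 8, 3 had an unadjusted limma p under 0.05 between dCINs and MNs, against 10.9% of all probe sets. The median log2 difference over the 8 was 0.25, against -0.03 over all. S100b read 1103 in dCINs and 771 in MNs, and the second Apoe probe set, S76779_s_at, 368 and 212, neither of them called. X63744_g_at for Slc1a3 was lower in dCINs, at 58.2 and 62.2. Astrocyte content was not tested. The paper reports very low intensity and no change for the glial genes GFAP and MBP. It describes all its differentially expressed genes, Apoe among them, as neuron related. For 7 oligodendrocyte probe sets the sums were 491 to 700 in dCINs, 500 to 772 in MNs and 372 to 787 in MIX, with none called between dCINs and MNs. The single microglial probe set (Itgam) read 14.1 to 19.4, 15.0 to 19.6 and 14.9 to 27.5 in the same order. No glutamatergic, vessel or Schwann cell marker of the lists was on the table. The arrays dCIN 1, MN 1 and MN 2 stood apart by the highest array medians, and the dCIN minus MN differences of all members are also given without them.

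Nicotinic receptors are ion channels of 5 subunits around a central pore that opens to sodium, potassium and, in some forms, calcium when acetylcholine binds. In neurons the α2, α3, α4 and α6 subunits form the binding site together with β2 or β4, α5 and β3 join as accessory subunits that shape the channel, and α7 can make a channel by itself. In the ventral horn, motor neurons release acetylcholine from axon collaterals onto Renshaw cells, interneurons that answer through nicotinic receptors and inhibit motor neurons in turn. Muscle receptors are built from a separate set of subunits.

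None of the 11 probe sets separated dCINs from MNs. Signals of all 11 overlapped between the 2 cell types, and 0 were called at a limma adjusted p under 0.1, against 3.81% of all 1050 probe sets (40). At an unadjusted p under 0.05, 0 of the 11 passed, against 10.9% of all. No member had arrays of one cell type wholly above the other, which 1.62% of all probe sets had. The regularized t of Cyber-T also called 0 members, none of them at an unadjusted p under 0.05, while calling 40 probe sets in all. On the log2 scale 4 members were higher and 7 lower in dCINs, with a median difference of -0.07 against -0.03 over all probe sets, and the median size of a difference was 0.088 against 0.132.

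The arrays also set a limit on how large a difference of array signal could be. For all 11 probe sets the 95% interval of the dCIN minus MN difference lay within a 2-fold change of signal either way, and for 10 of 11 it lay within 1.5-fold. The widest bounds were 1.52-fold higher in MNs, for the Chrna7 probe set L31619_at, and 1.29-fold higher in dCINs, for Chrna5. The largest measured difference among the members was 0.158 in size, for Chrna3, and 459 probe sets (43.7%) had a larger one. That place rested on single arrays, since the Chrna3 difference was -0.06 without dCIN 2 and -0.25 without dCIN 5. Leaving out 1 array moved each of the 11 differences by over 1.5 times or turned its sign, though every interval between dCINs and MNs was still within 2-fold. These limits hold for the array signal. All member signals lay between 15.0 and 105 on a table that runs from 1 to 8642, no detection calls were used here, and how much of a signal near the array median of 43.5 to 50.9 is transcript was not tested. In samples of pooled cells, fewer cells of a type and less RNA per cell cannot be told apart.

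**Figure D1:**
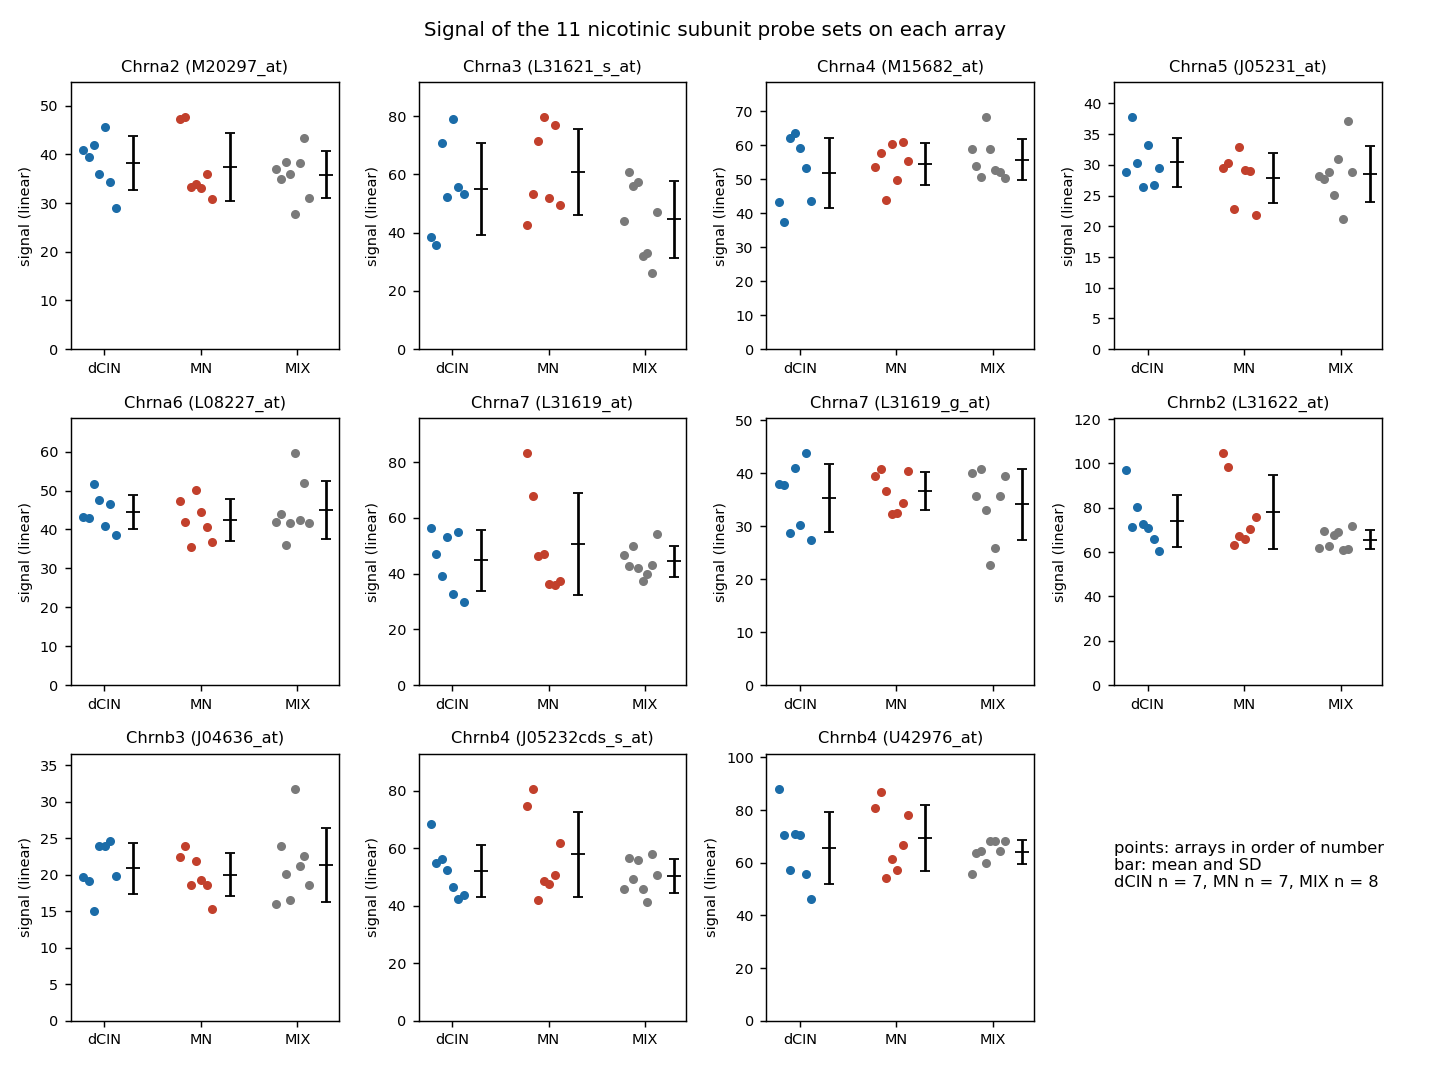
Signal of each of the 11 probe sets (y axis, linear deposited summary, a separate scale for each panel) on the dCIN (n = 7), MN (n = 7) and MIX (n = 8) arrays. Points are arrays in order of their number, and the bar beside them is the mean ± SD. The groups overlap in every panel, and the arrays dCIN 1, MN 1 and MN 2 stand highest for Chrnb2, both Chrnb4 probe sets and the Chrna7 probe set L31619_at.

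Among the α subunits that line the binding site, Chrna2 is known in the adult spinal cord as a gene of Renshaw cells. Its probe set (M20297_at) read 29.1 at the lowest, 39.4 at the median and 45.5 at the highest in dCINs, 30.9, 33.9 and 47.6 in MNs and 27.7, 36.4 and 43.4 in MIX. The medians lay further apart than the means (38.2 in dCINs and 37.4 in MNs), since MN 1 and MN 2 at 47.2 and 47.6 were the highest of all arrays while the other 5 MN arrays lay between 30.9 and 35.9. The dCIN minus MN difference was 0.03 on the log2 scale (SE 0.13, 95% interval -0.24 to 0.31, limma adjusted p = 0.936). On none of the 22 arrays did this probe set reach the median signal of its own array.

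Chrna3 encodes the α subunit best known from autonomic ganglia. It had the widest spread between arrays of all members, with 35.9, 53.4 and 78.9 (lowest, median, highest) in dCINs, 42.8, 53.1 and 79.7 in MNs and 26.1, 45.6 and 60.8 in MIX. Within each group the highest array had 1.86 to 2.33 times the signal of the lowest, and the medians of dCINs and MNs were nearly the same. Its difference between dCINs and MNs was -0.16 (SE 0.19, 95% interval -0.57 to 0.26, limma adjusted p = 0.796). The ending _s_at marks a probe set whose probes can match more than 1 related sequence, so this signal may not be Chrna3 alone.

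Chrna4, the usual partner of Chrnb2 in the brain, read 37.4, 53.5 and 63.5 in dCINs, 44.0, 55.5 and 61.0 in MNs and 50.4, 53.4 and 68.3 in MIX. All 3 medians lay within a few units of each other, and the low end of the dCIN range came from 3 arrays, dCIN 1, dCIN 2 and dCIN 7, at 43.3, 37.4 and 43.6. The difference was -0.09 (SE 0.13, 95% interval -0.37 to 0.19). Chrna6, found mainly in catecholamine neurons and the visual system, had 38.5, 43.3 and 51.6 in dCINs, 35.5, 42.0 and 50.1 in MNs and 35.9, 42.2 and 59.6 in MIX. Its spread within a group was the narrowest of the 11 by residual SD on the log2 scale (0.19), and its difference of 0.07 (SE 0.10, 95% interval -0.14 to 0.29) was held to the tightest interval.

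The accessory subunits showed the same picture. Chrna5 (J05231_at) read 26.4, 29.5 and 37.8 in dCINs, 21.9, 29.2 and 33.0 in MNs and 21.2, 28.5 and 37.1 in MIX. Its medians were within 1 unit of each other, and it had the smallest p of the members between dCINs and MNs, at a difference of 0.13 (SE 0.11, 95% interval -0.12 to 0.37, limma adjusted p = 0.724). Chrnb3 read 15.0, 19.9 and 24.6 in dCINs, 15.3, 19.3 and 23.9 in MNs and 16.0, 20.6 and 31.8 in MIX, a difference of 0.06 (SE 0.13, 95% interval -0.22 to 0.33) between dCINs and MNs. Neither probe set reached the median of its own array on any of the 22 arrays.

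The β subunits that complete the binding site were read by 3 probe sets. Chrnb2 (L31622_at), the most common partner in the brain, read 60.5, 71.3 and 97.0 in dCINs, 63.2, 70.6 and 105 in MNs and 60.7, 65.2 and 71.7 in MIX. It lay above its array's median on all 22 arrays, and 3 arrays stood clear of the other 19: MN 1 at 104.7, MN 2 at 98.4 and dCIN 1 at 97.0, with the next at 80.1. The difference was -0.06 (SE 0.14, 95% interval -0.36 to 0.23, limma adjusted p = 0.885).

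Chrnb4, which pairs with Chrna3 in ganglia, was read by 2 probe sets. The probe set U42976_at gave 46.1, 70.4 and 88.0 in dCINs, 54.1, 66.7 and 86.7 in MNs and 55.7, 64.4 and 68.4 in MIX, and also lay above the array median on 22 of 22 arrays. The probe set J05232cds_s_at gave 42.6, 52.7 and 68.3 in dCINs, 42.1, 50.7 and 80.7 in MNs and 41.5, 50.1 and 58.0 in MIX, above the median on 17 arrays. Both differences were small and of the same sign, at -0.09 (SE 0.15, 95% interval -0.41 to 0.23) and -0.13 (SE 0.16, 95% interval -0.47 to 0.20). A single array moved both by over 1.5 times, to -0.05 for J05232cds_s_at without MN 2 and to -0.0076 for U42976_at without dCIN 7. The dCIN median of each was above the MN median, so mean and median ordered the cell types differently.

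Chrna7, the subunit of the fast, calcium-permeable homomeric receptor, was also read by 2 probe sets. L31619_at gave 29.8, 47.1 and 56.5 in dCINs, 35.8, 46.2 and 83.3 in MNs and 37.3, 42.9 and 54.3 in MIX. Of its MN arrays, MN 1 (83.3) and MN 2 (67.8) lay above every array of the other groups and the other 5 lay at 47.1 or lower, so the difference of -0.14 (SE 0.21, 95% interval -0.60 to 0.31, limma adjusted p = 0.813) had the widest interval of the comparison. Without MN 1 this difference was -0.011. L31619_g_at gave 27.4, 37.8 and 43.8 in dCINs, 32.3, 36.7 and 40.7 in MNs and 22.6, 35.7 and 40.7 in MIX, with MN 1 and MN 2 at 39.4 and 40.7. Here those 2 arrays did not stand apart, and the difference was -0.07 (SE 0.12, 95% interval -0.33 to 0.19).

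**Figure D2:**
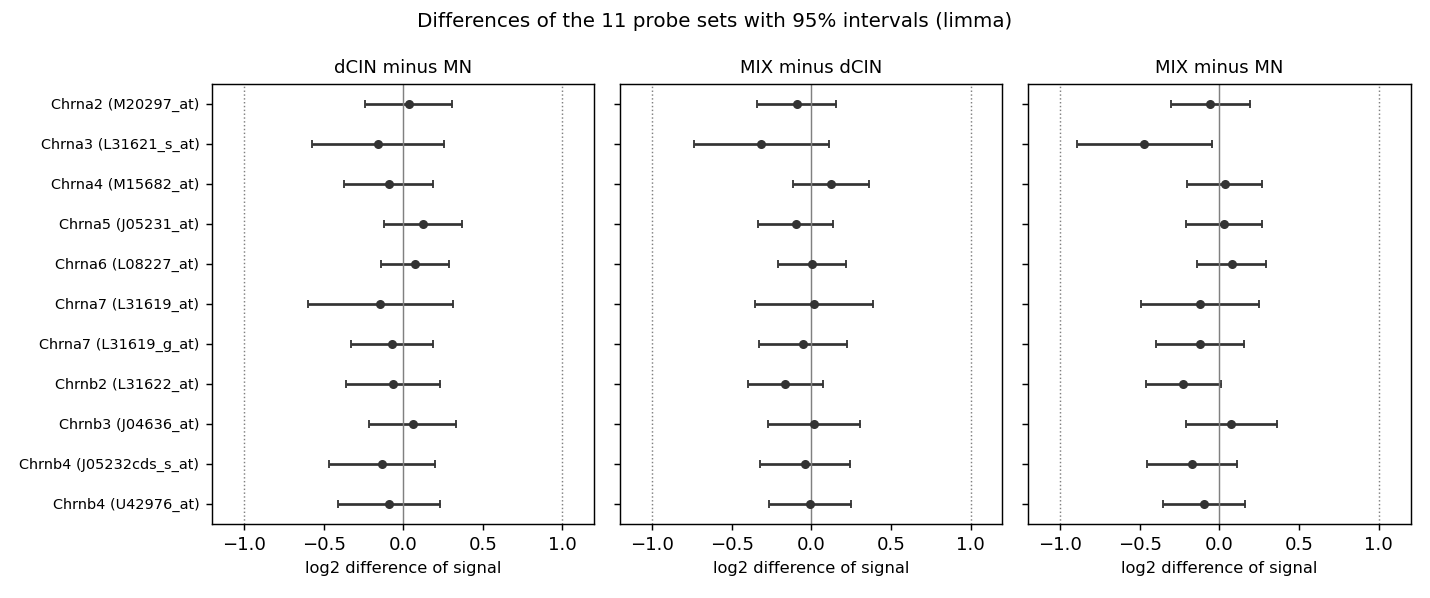
Log2 difference of signal (x axis) for each of the 11 probe sets (y axis) in 3 comparisons, with the limma 95% interval as the bar. The dotted lines mark a 2-fold change either way, and no interval reaches them. For Chrna3 in MIX minus MN the interval, -0.89 to -0.05, lies wholly on 1 side of 0.

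MIX samples served as a picture of the ventral horn at large, and they share their arrays with both comparisons. Against dCINs, 0 of 11 members were called, 0 passed an unadjusted p of 0.05, and 0 had groups that did not overlap. The same shares over all probe sets were 0.476%, 7.14% and 0.190%. Against MNs, 0 of 11 were called (0.952% of all), 1 passed an unadjusted p of 0.05 (11.8% of all), and 0 had groups that did not overlap (0.190% of all). A count of 1 among 11 is near the table's share and too small to set the members apart from it. The median size of a member's difference was again below that over all probe sets, at 0.053 against 0.102 for dCINs and 0.096 against 0.153 for MNs. Every 95% interval lay within a 2-fold change over all arrays, with the widest bounds at 1.67-fold lower in MIX than in dCINs and 1.86-fold lower in MIX than in MNs, both for Chrna3. Without dCIN 1, MN 1 and MN 2 the latter bound passed 2-fold, at 2.07-fold.

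The member below an unadjusted p of 0.05 was Chrna3. Its MIX minus MN difference was -0.47 (SE 0.20, 95% interval -0.89 to -0.05, limma adjusted p = 0.412). Without dCIN 1, MN 1 and MN 2 the Chrna3 difference was -0.60 (-1.05 to -0.14). By array, 3 MIX arrays, MIX 5, MIX 6 and MIX 7, read 31.9, 33.0 and 26.1, below every MN array, and the other 5 read 44.0 to 60.8, inside the MN range. The MIX minus dCIN difference was -0.31 (SE 0.20, adjusted p = 0.884). Chrnb2 came next against MNs, at -0.23 (SE 0.11, 95% interval -0.46 to 0.01, adjusted p = 0.412). Without dCIN 1, MN 1 and MN 2 this difference was -0.06 (-0.23 to 0.10). All 8 MIX arrays of Chrnb2 lay at 71.7 or lower, within a range of 1.18-fold, and 4 of the 7 MN arrays lay in the same range.

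**Figure D3:**
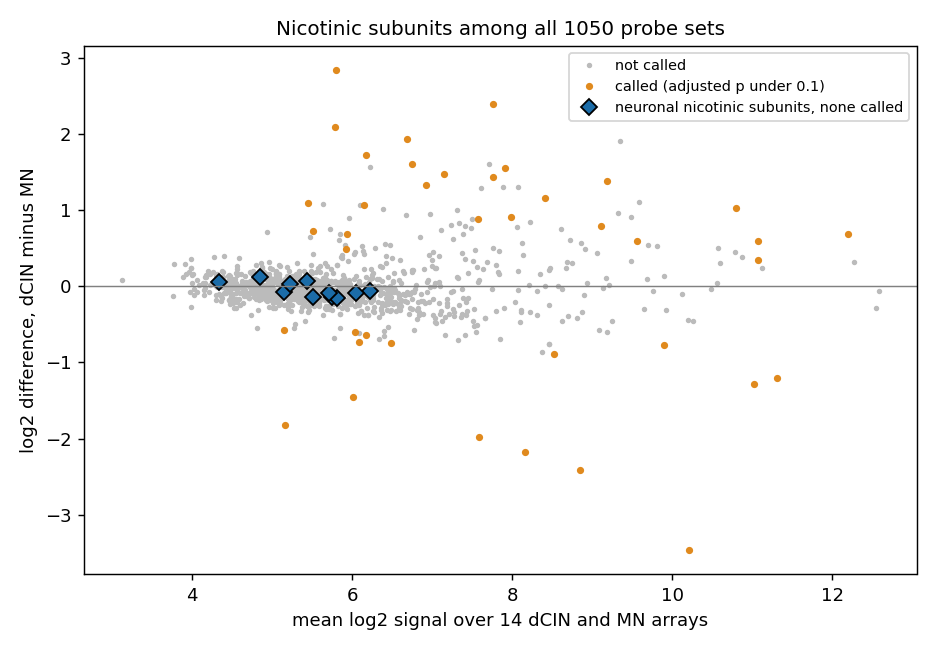
Log2 difference, dCIN minus MN (y axis), against the mean log2 signal over the 14 arrays (x axis) for all 1050 probe sets. The 11 nicotinic subunit probe sets (diamonds) lie within 0.16 of 0, whereas the 40 called probe sets (orange) reach -3.47 and beyond 2.

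Arrays of the same group differed more than the cell types did. The residual SD of a member within groups was 0.19 to 0.41 on the log2 scale, above every dCIN minus MN difference of the 11. Each array's deviation from its group mean was taken on the log2 scale and correlated between probe sets over the 22 arrays, as a description. The closest pair was Chrnb2 and the Chrnb4 probe set J05232cds_s_at (r = 0.87), followed by Chrnb2 and U42976_at (0.78) and the 2 Chrnb4 probe sets with each other (0.72). Over the 55 pairs the median r was 0.13, 9 pairs were above 0.5 and 16 were below 0, and the median over all pairs of probe sets on the table was 0.036.

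Much of this rested on 3 arrays. dCIN 1, MN 1 and MN 2 had the highest median signals of all 22 arrays (50.8 to 50.9, the other 19 at 43.5 to 48.6). MN 1 and MN 2 were made from the most cells, about 250 and 230, whereas dCIN 1, with the highest median, came from about 60. These 3 arrays were also the 3 highest for Chrnb2, both Chrnb4 probe sets and L31619_at of Chrna7. That is 4 of 11 members, where 173 of all probe sets (16.5%) had the same top 3. Without these arrays (n = 19) the r of Chrnb2 was 0.67 with J05232cds_s_at and 0.60 with U42976_at, and that between the Chrnb4 probe sets was 0.47. The r of L31619_at with Chrnb2 went from 0.67 to 0.09. Between dCINs and MNs, 0 of the 11 members were called without these arrays either. The largest differences were then -0.21 for Chrna3 (95% interval -0.64 to 0.23) and 0.18 for Chrna5 (-0.11 to 0.47). Those of Chrnb2 and L31619_at had the other sign, at 0.03 (-0.18 to 0.24) and 0.05 (-0.32 to 0.42). Chrna2 went to 0.16 (-0.09 to 0.41) and Chrnb3 to 0.16 (-0.15 to 0.47). The Chrnb4 probe sets came to -0.02 for J05232cds_s_at (-0.28 to 0.24) and -0.05 for U42976_at (-0.35 to 0.26). The remaining differences were -0.04 for Chrna4, 0.11 for Chrna6 and -0.04 for L31619_g_at. With each array's median subtracted, over all 22 arrays, the r of Chrnb2 was 0.79 with J05232cds_s_at, 0.66 with U42976_at and 0.52 with L31619_at, and that of the Chrnb4 pair was 0.57. The part of cell number in these correlations was not tested.

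Over all 22 arrays, Chrnb2 followed many genes outside the receptor family as closely as it followed Chrnb4. With Chrnb2, 31 of 1049 probe sets had a higher r than J05232cds_s_at and 103 had a higher r than U42976_at. The 3 named probe sets most like Chrnb2 over the 22 arrays were those for the phosphatase Dusp4 (r = 0.93), the cortactin-binding protein Cttnbp2 (0.93) and the cytokine Il4 (0.92). For J05232cds_s_at they were the adipose hormone Lep (0.92), the tumour necrosis factor receptor Tnfrsf1a (0.92) and the cytokine Il6 (0.91), and for U42976_at Cttnbp2 (0.86), the epithelial sodium channel subunit Scnn1b (0.84) and the phosphodiesterase Pde4a (0.84). These probe sets were looked up after the values of Chrnb2 and Chrnb4 had been seen. Their r are of log2 signals, whereas the counts of 31 and 103 are by deviations from group means. By deviations the r with Chrnb2 was 0.94 for Dusp4, 0.94 for Cttnbp2 and 0.92 for Il4. All these r include dCIN 1, MN 1 and MN 2, and their size without those arrays was not tested.

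**Figure D4:**
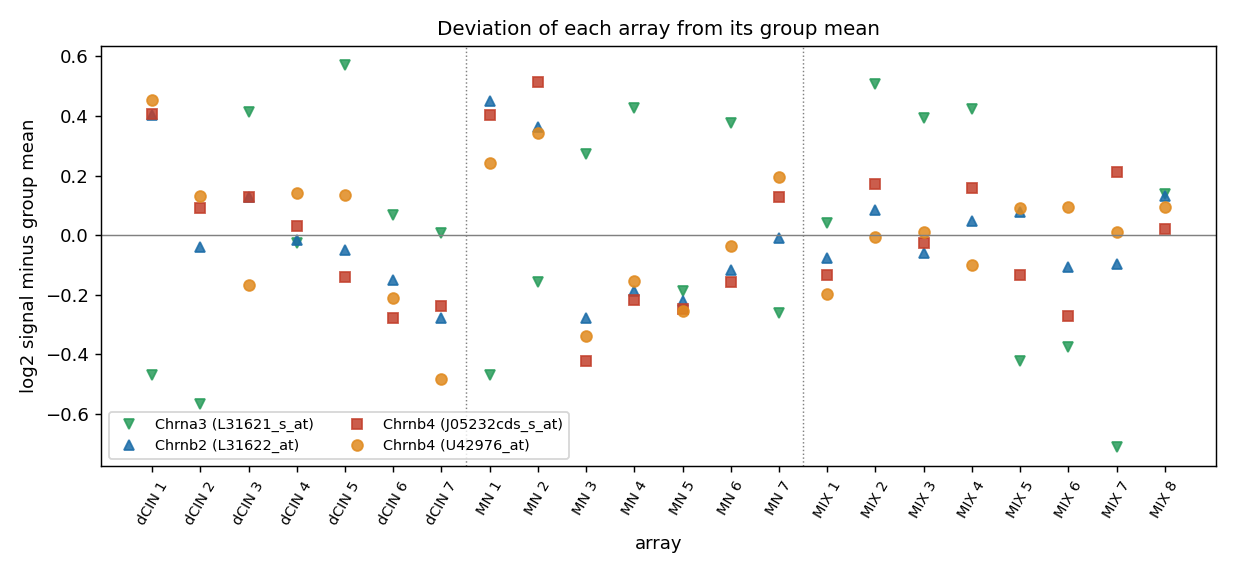
Deviation of each array from its group mean (y axis, log2 signal) for Chrnb2, both Chrnb4 probe sets and Chrna3, array by array (x axis, with dotted lines between the groups). The 3 β probe sets lie together and high on dCIN 1, MN 1 and MN 2, where Chrna3 lies below its group mean.

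Chrna3 behaved differently. Its r was -0.27 with Chrnb2, -0.32 with J05232cds_s_at and -0.41 with U42976_at, and without the 3 bright arrays these were 0.20, -0.05 and -0.22. It lay closest to Chrna4 among the members (0.45, and 0.44 without the 3 arrays). Over the 22 arrays the named probe sets most like Chrna3 were those for the sodium channel Scn3a (r = 0.79), the G protein subunit Gnao1 (0.65) and the calcium channel subunit Cacna2d1 (0.64), also looked up after its values had been seen. For Chrna5, the member with the smallest p between dCINs and MNs, they were Itpka, an inositol phosphate kinase (0.58), the calcium channel Cacna1e (0.57) and the receptor Calcrl (0.54). The r with these named probe sets are again of log2 signals. By deviations those of Chrna3 were 0.74 with Scn3a, 0.59 with Gnao1 and 0.59 with Cacna2d1. Those of Chrna5 were 0.58 with Itpka, 0.54 with Cacna1e and 0.52 with Calcrl.

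Some subunits sit side by side in the genome. In the RefSeq gene table for the rat assembly GRCr8, where all 9 genes were found, Chrna5, Chrna3 and Chrnb4 lie next to each other with 0 protein-coding genes between neighbours, as do Chrna6 and Chrnb3. The deviations of Chrna6 and Chrnb3 had an r of 0.49 over the 22 arrays and 0.48 without the 3 bright arrays. On the single array MIX 5 both had their highest value, 59.6 for Chrna6 and 31.8 for Chrnb3. In the other cluster Chrna5 and Chrna3 had an r of -0.16, and Chrna3 and Chrnb4 had the negative values given above. Chrna5 had 0.26 with J05232cds_s_at and 0.09 with U42976_at. Pairs that are not neighbours came near or above the r of Chrna6 and Chrnb3. Chrnb2 had 0.87 and 0.78 with the Chrnb4 probe sets and 0.67 with L31619_at, and Chrna2 had 0.59 with J05232cds_s_at. Chrna5 and Chrna6 had 0.44 (0.43 without the 3 bright arrays), and Chrna3 and Chrna4 had 0.45. Whether position bears on these r was not tested. The pair that forms the main receptor of the brain, Chrna4 and Chrnb2, had an r of 0.12, which was 0.44 without the 3 bright arrays and -0.07 with array medians subtracted.

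**Figure D5:**
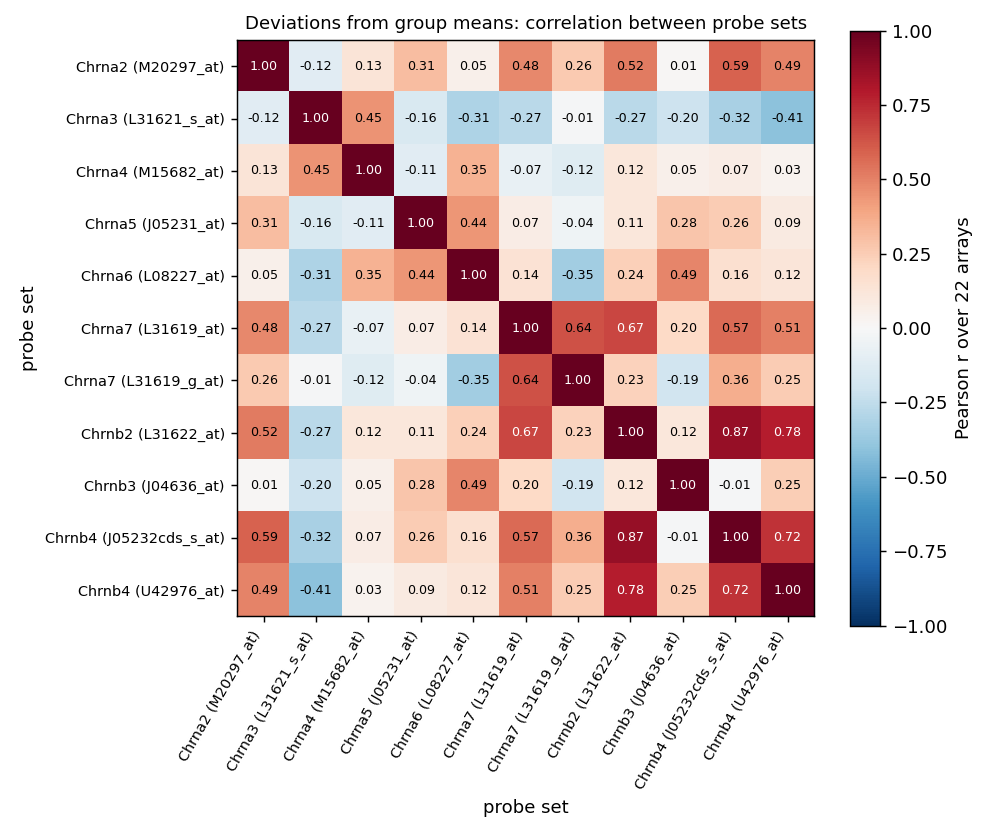
Pearson r between the 11 probe sets (both axes) of the deviations from group means over 22 arrays, by color and number. Chrnb2 and both Chrnb4 probe sets form the block of highest values, 0.72 to 0.87, the 2 Chrna7 probe sets have 0.64, and the row of Chrna3 is below 0 except with Chrna4.

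Where a gene had 2 probe sets, the readings could be set against each other. The deviations of the 2 Chrna7 probe sets had an r of 0.64, which was 0.73 without the 3 bright arrays, so they followed each other on the remaining 19 arrays as well. The Chrnb4 pair went from 0.72 to 0.47. Over all 14 arrays the probe sets of each gene had the same sign between dCINs and MNs, but without the 3 bright arrays those of Chrna7 had opposite signs, at 0.05 (L31619_at) and -0.04 (L31619_g_at).

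The members can be placed beside the rest of the cholinergic system and related receptors, from lists drawn up with earlier results of these data known. Of 16 listed genes of the cholinergic synapse outside the members, 8 were on the table with 12 probe sets. Between dCINs and MNs 1 was called, lower in dCINs, and 0 were called higher, with a median difference of -0.13 over the 12 against -0.03 over all. That probe set was for Slc18a3 (U09211_at), with a difference of -3.47 (SE 0.60, limma adjusted p = 0.00294), whereas its second probe set, X80395cds_s_at, gave -0.30 (adjusted p = 0.439) at signals of 39.8 and 50.4. In MIX samples Slc18a3 (U09211_at) was called higher than in dCINs, by 2.80 (adjusted p = 0.0106), the only call of this list, and against MNs the list had 0 calls.

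The muscarinic receptors, the other family of acetylcholine receptors, had 7 of those 12 probe sets, none of them called. Chrm1 read 49.6 in dCINs and 61.2 in MNs, a difference of -0.30 (SE 0.16). Chrm3 (M16407_at) read 245 and 195, a difference of 0.32 (SE 0.25). The second Chrm3 probe set, AB017656_s_at, read 45.4 and 42.7, a difference of 0.09. The 5 muscle subunits Chrna1, Chrnb1, Chrnd, Chrne and Chrng had 5 probe sets with 0 calls in any of the 3 comparisons, and their summed signal was 185 to 260 in dCINs, 189 to 287 in MNs and 200 to 258 in MIX. Chrna9, a subunit of the inner ear, read 22.4 in dCINs and 19.6 in MNs, a difference of 0.20, again not called, and Chrna10 was not analysed here.

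Other receptors built on the same 5-subunit plan, those for GABA, glycine and serotonin, had 21 probe sets for 16 of 24 listed genes. Between dCINs and MNs 1 was called and 0 were called in the MIX comparisons, with a median difference of 0.01 between dCINs and MNs. The called probe set was for the serotonin receptor subunit Htr3a (U01227_s_at), at 69.6 in dCINs and 120 in MNs, a difference of -0.75 (SE 0.16, limma adjusted p = 0.0153), while the second Htr3a probe set, D49395_s_at, read 43.8 and 43.7. Glra1, the adult glycine receptor α subunit, had a difference of 0.40 (D00833_g_at, SE 0.13) that did not pass at a limma adjusted p of 0.144. The paper does count this probe set as differentially expressed, by its mean rank over Cyber-T, limma and SAM. The second Glra1 probe set, D00833_at, had a difference of 0.12 (limma adjusted p = 0.720). Beside the 3.81% called over the table, counts of 0 of 11 and 1 of 21 are too small to set either list apart from it.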

How the data were processed

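Intensities of 22 RN_U34 arrays were deposited as linear expression summaries for 1050 probe sets. Per the labels and the study's methods, the authors made them with affy (version not given in the sources used here) by QLT and QPN of background-subtracted PM probes over all arrays and Li-Wong summaries, less a universal minimum. Summaries were log2-transformed, and groups were compared in R 4.3.3 by lmFit and eBayes of limma 3.58.1, dCINs and MNs over 14 arrays and the MIX comparisons with 3 group means over 22 arrays. The threshold for a call was an adjusted p of 0.1 (Benjamini-Hochberg over the 1050). Cyber-T was rewritten from its published description (window of 101 probe sets, prior weight of 10). The code was tested on simulated data. Platform annotation named 961 probe sets with 1 symbol, 7 had several genes and 82 none.

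Members and lists were chosen with earlier results of these data known. All member probe sets were named. Genes alike in pattern were the 3 named probe sets of highest Pearson r of log2 signals over 22 arrays. They were taken for the member of smallest p between dCINs and MNs and for any called member. Alternatives were a fit of all groups, an offset of 32, only probe sets of mean log2 of at least 6, other normalizations, variance models and thresholds, array weights, blocks or covariates for array number and cell number, and left-out arrays. The number of arrays limits the precision. Probe-level values, SAM and RT-PCR were not used here. Python 3.11.15 with pandas 2.3.3 and matplotlib 3.10.9 drew the figures.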

Additional observations from a re-analysis of the deposited data

How the results depend on the processing

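In all 3 comparisons 0 of the 11 members were called under every alternative run, and the lowest adjusted p of any member was 0.143. Of 369 values of the 33 member differences under 14 settings, 83 equal the reported one because the setting leaves the group means as they are. Of the other 286, 241 had the sign given in the report and 45 had the other. The largest turned value was 0.351 in size. Of 638 values with 1 array left out, 37 had the other sign. The cause of these turns was not tested. The count of all probe sets called between dCINs and MNs was 40, 76 with array weights and 83 with arrays 1 and 2 of each group against the rest as a covariate, and 31 (without dCIN 4) to 55 (without MN 3) with 1 array left out. The array numbers did not meet the condition for pairing, a correlation above 0.1 in every pair: same-numbered dCIN and MN deviations correlated at -0.19 to 0.53, above 0.1 in 5 of 7 pairs, and 2 of 7 arrays correlated best with their own number. The replicate block gave 55 calls over all probe sets and 0 members, with a Chrna5 difference of 0.13. The number of arrays sets the width of the intervals, and no detection calls were used here.

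The values that turned are these, with Chrna7 and Chrnb4 given by probe set (L31619 for Chrna7). With quantile normalization, the MIX minus dCIN difference was 0.039 for U42976_at. With array medians subtracted, the MIX minus dCIN difference was 0.00703 for U42976_at. With array weights, the dCIN minus MN difference was 0.16 for L31619_at, 0.0396 for L31619_g_at and 0.045 for Chrnb2. The MIX minus dCIN difference was -0.11 for Chrna6 and -0.048 for Chrnb3 under the same setting. The MIX minus MN difference was 0.0402 for Chrna2, -0.0088 for Chrna4, -0.027 for Chrna5, -0.0100 for Chrna6, 0.19 for L31619_at and 0.038 for L31619_g_at under the same setting. With array numbers as a replicate block, the MIX minus dCIN difference was -0.023 for L31619_at. With only arrays numbered 3 and above, the dCIN minus MN difference was 0.058 for Chrna4, 0.017 for L31619_at and 0.027 for Chrnb2. The MIX minus dCIN difference was -0.018 for Chrna4, 0.053 for J05232cds_s_at and 0.14 for U42976_at under the same setting. The MIX minus MN difference was 0.083 for Chrna2, 0.13 for L31619_at, 0.0041 for J05232cds_s_at and 0.055 for U42976_at under the same setting. With the log2 number of cells as a covariate, the dCIN minus MN difference was 0.20 for L31619_at, 0.0203 for L31619_g_at, 0.083 for Chrnb2, 0.013 for J05232cds_s_at and 0.034 for U42976_at. The MIX minus dCIN difference was -0.053 for Chrna6, -0.35 for L31619_at and -0.11 for Chrnb3 under the same setting. Without the MN samples of over 200 cells, the dCIN minus MN difference was 0.11 for L31619_at, 0.0996 for Chrnb2, 0.0504 for J05232cds_s_at and 0.029 for U42976_at. Without dCIN 1, MN 1 and MN 2, the 3 arrays of highest median (chosen after seeing the data), the dCIN minus MN difference was 0.052 for L31619_at and 0.032 for Chrnb2. The MIX minus dCIN difference was -0.00079 for Chrna6, 0.028 for J05232cds_s_at and 0.067 for U42976_at under the same setting. The MIX minus MN difference was 0.088 for Chrna2, 0.13 for L31619_at, 0.011 for J05232cds_s_at and 0.021 for U42976_at under the same setting. Over the arrays left out in turn, the dCIN minus MN difference ran from -0.0097 to 0.098 for Chrna2, -0.13 to 0.012 for Chrnb2 and -0.0029 to 0.14 for Chrnb3. Over the arrays left out in turn, the MIX minus dCIN difference ran from -0.056 to 0.048 for Chrna6, -0.086 to 0.028 for J05232cds_s_at, -0.089 to 0.067 for U42976_at, -0.0701 to 0.071 for Chrnb3, -0.072 to 0.083 for L31619_at and -0.11 to 0.027 for L31619_g_at. Over the arrays left out in turn, the MIX minus MN difference ran from -0.018 to 0.061 for Chrna4, -0.011 to 0.13 for Chrnb3, -0.0295 to 0.086 for Chrna5, -0.099 to 0.0052 for Chrna2 and -0.19 to 0.0092 for L31619_at.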
